A study of Homo sapiens with 4 samples.

Results

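The expression of 10 genes of the complement system was examined in MV4-11, a human acute monocytic leukemia cell line that carries an MLL fusion and an internal tandem duplication of FLT3, upon knockdown of CEBPG, a leucine-zipper transcription factor. They are C3, the alternative pathway genes CFB, CFD and CFP, the anaphylatoxin receptor genes C5AR1 and C3AR1, and the membrane regulator genes CR1, CD46, CD55 and CD59. All 10 were listed among the 16490 genes of the expression table. The genes were selected on their FPKM values in the comparison of the knockdown with the control, so their changes are given as a description, with no p and with nothing read from how many of them were called. Both groups carry a lentiviral short hairpin vector (pLKO.1-puro) and were selected with puromycin. The 2 control libraries come from cells with sh-NC, and the 2 knockdown libraries from cells with sh-CEBPG#3. In the knockdown libraries CEBPG RNA was at 56.8% of the control mean, so the knockdown was partial. A single hairpin against CEBPG was sequenced, so an effect of that hairpin and an effect of the reduction of CEBPG cannot be told apart. The labels name no separate infections or cultures, so p-values measure only the spread between these samples, which may be technical.

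Complement is a cascade of serum proteases that tags and lyses cells and microbes. C3 lies at its centre, where the convertases cut it into C3a, a small peptide that attracts and activates leukocytes, and C3b, which is bound covalently to nearby surfaces. The alternative pathway amplifies this step, the anaphylatoxin receptors sense C3a and C5a, and host cells carry membrane proteins that stop the cascade on their own surface. The liver makes most of the circulating components, while monocytes and macrophages make C3, factor D and properdin locally.

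The values are FPKM, read fragments scaled by the length of the transcript and by the mapped reads of the library, so levels of different genes can be compared per length. Totals of the FPKM values ranged from 364353 to 389766 over the 4 libraries. CEBPG itself, the targeted gene, had 30.4 and 33.6 FPKM under sh-NC and 19.2 and 17.1 FPKM under sh-CEBPG#3, with an adjusted p = 8.88e-05 in limma. The 8 myeloid markers (SPI1, CD33, LYZ, MPO, FLT3, CSF1R, CD68 and PTPRC) were all listed, while 5 of 18 markers of T cells, B cells, erythroid cells, fibroblasts, epithelium and liver were. No T cell or erythroid marker was listed. The myeloid markers summed to 903 to 987 FPKM under sh-NC and to 3462 to 3638 FPKM under sh-CEBPG#3, most of it LYZ. LYZ alone had 567 and 610 FPKM against 3126 and 2982 FPKM. FLT3 was lower in both knockdown libraries, and the other myeloid markers were higher in both. Over all genes with values, 35.1% were lower in both and 29.5% higher in both. FLT3 and PTPRC were not called (adjusted p = 0.161 and 0.123 in limma). Of the other markers, KRT8 had 2.29 and 2.35 FPKM against 6.26 and 6.19 FPKM, with EPCAM and CDH1 not listed, and CD79A, COL1A1 and APOA1 had at most 1.33 FPKM. The part of these shifts in the results below was not tested, and in bulk RNA a change in the number of cells of a kind and a change in RNA per cell cannot be told apart.

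The promoter windows of 9 of the 10 genes were read from RefSeq on GRCh38.p14, each from 250 bases before to 50 bases after an annotated start. The window of C3 is not in the table. A window each of CFB, CFP and C5AR1 is printed. Each holds letters of a site for interferon or NF-kB factors, as do CD59 windows that are not printed. The genes were also picked since they differ widely in level. CFB is close to 0 in every library, while CFP and, at low values, C5AR1 are higher in the knockdown. Capitals mark the matches. The CFB window is chr6:31945845-31946144 on the plus strand, the CFP window chrX:47630256-47630555 on the minus strand and the C5AR1 window chr19:47309611-47309910 on the plus strand.
CFB: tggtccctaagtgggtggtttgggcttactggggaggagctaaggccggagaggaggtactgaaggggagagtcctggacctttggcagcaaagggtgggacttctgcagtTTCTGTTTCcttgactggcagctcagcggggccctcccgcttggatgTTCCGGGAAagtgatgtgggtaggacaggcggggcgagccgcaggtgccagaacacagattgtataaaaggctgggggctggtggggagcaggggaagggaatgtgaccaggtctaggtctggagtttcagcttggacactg
CFP: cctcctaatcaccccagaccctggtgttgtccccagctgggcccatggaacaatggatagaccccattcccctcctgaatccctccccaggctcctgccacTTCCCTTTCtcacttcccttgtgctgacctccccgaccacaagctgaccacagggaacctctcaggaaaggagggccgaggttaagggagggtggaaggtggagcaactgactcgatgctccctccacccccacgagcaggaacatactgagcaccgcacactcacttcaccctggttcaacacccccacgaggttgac
C5AR1: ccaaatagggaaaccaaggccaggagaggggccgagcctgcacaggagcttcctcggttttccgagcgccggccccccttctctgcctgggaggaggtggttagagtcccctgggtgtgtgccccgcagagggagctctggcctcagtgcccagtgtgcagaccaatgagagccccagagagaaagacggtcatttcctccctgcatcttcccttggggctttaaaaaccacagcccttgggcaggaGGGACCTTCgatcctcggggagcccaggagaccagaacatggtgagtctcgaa

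Both strands were searched for 6 motifs, where N is any base. The ISRE core GAAANNGAA was found on the opposite strand 139 bases before the start of CFB and 149 bases before the start of CFP, and 8.1% of the 34943 RefSeq windows of this length hold it. The GAS letters TTCNNNGAA begin 92 bases before the start of CFB and are in 7.66% of the windows. They also occur in 2 overlapping windows of CD59. The NF-kB core GGGNNNTTC begins 3 bases before the annotated start of the C5AR1 window, and 15.5% of the windows hold it. That start lies inside the span given for C5AR1 below, not at its first base. The C/EBP letters TTGCNNAA, found in 10.5% of the windows, occur at 2 places in another CD59 window and in no other window searched here. The composite TGATGNAA (3.62% of the windows) and the PU.1 letters GAGGAAGT (2.59%) had no match. No match was found in 8 of the 14 windows. These are the windows of CD55, CR1, CD46, C3AR1 and CFD, a second window of CFP and a further window of CD59. A match shows only that the letters are there.

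Of the 10 genes, C3 differed most between the groups. It had 6.84 and 7.92 FPKM under sh-NC and 52.5 and 50.3 FPKM under sh-CEBPG#3. Both knockdown libraries lay far above both controls, and the libraries within a group were close to each other. Means of 7.38 ± 0.764 FPKM under sh-NC and 51.4 ± 1.52 FPKM under sh-CEBPG#3 (SD, n = 2 each) gave a ratio of 6.96. Between single libraries the ratio ranged from 6.35 to 7.67. On the log2(FPKM + 1) scale the fold change was 2.65 with a standard error of 0.087, and it ranked 20 from the top (the 99.8 percentile) among the 12142 genes tested. C3 lies on the minus strand of chromosome 19 from 6677704 to 6720650 (GRCh38.p14), its canonical GENCODE transcript has 41 exons, and 1 RefSeq transcript, NM_000064, carries all of its signal.

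CFD, CFP and CFB encode the other proteins of the alternative pathway. Factor D is the serine protease that cuts factor B once it is bound to C3b. CFD was by far the most abundant of the 10 genes, with 359.2 and 359.4 FPKM under sh-NC and 466 and 426 FPKM under sh-CEBPG#3. Both knockdown libraries were higher, by a ratio of means of 1.24 and a log2 fold change of 0.31 (standard error 0.072). CFD held rank 119 of all genes by mean level. CFD spans 859664 to 863641 of chromosome 19 on the plus strand and has 5 exons.

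Most of the CFD signal came from NM_001928, which had 342 and 345 FPKM in the controls and 413.8 and 413.7 FPKM in the knockdown. The second transcript, NM_001317335, had 16.9 and 14.03 FPKM in the controls but 52.5 and 11.9 FPKM in the knockdown, so it differed more between the 2 knockdown libraries than between the groups. The gap between the knockdown libraries of CFD is the gap in this transcript.

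CFP encodes properdin, which stabilizes the alternative pathway convertase and which leukocytes secrete. It had 2.70 and 3.19 FPKM under sh-NC and 11.0 and 9.97 FPKM under sh-CEBPG#3. The groups did not overlap, and the ratio of means was 3.57 (2.94 ± 0.351 against 10.5 ± 0.740 FPKM, SD, n = 2 each). The log2 fold change was 1.55 (standard error 0.103), which placed CFP at the 99.1 percentile of all genes tested. CFP is on the minus strand of chromosome X from 47623282 to 47630305, has 9 exons, and is listed by NM_001145252 alone.

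CFB encodes factor B, the catalytic part of the convertase. Its only transcript, NM_001710, had 0.00574 FPKM in one sh-NC library, is listed at 0 in the other, and had 0.0175 and 0.00797 FPKM under sh-CEBPG#3. All 4 values are near 0, so no fold is given. Of the alternative pathway genes, then, CFD and CFP were present and CFB was near the bottom of the table in both groups. CFB spans 31946095 to 31952084 of chromosome 6 on the plus strand and has 18 exons.

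The anaphylatoxin receptors are G protein-coupled receptors of myeloid cells. C5AR1, the receptor for C5a, had 0.468 and 0.397 FPKM under sh-NC and 1.06 and 1.08 FPKM under sh-CEBPG#3. The knockdown values were higher and the groups did not overlap, but all 4 are low. The ratio of means was 2.47, while the log2 fold change on the log2(FPKM + 1) scale, which understates the change of low genes, was 0.53 (standard error 0.134) and became 1.29 with a pseudocount of 0.01. C5AR1 passed the filter on low values (a mean of at least 0.5 FPKM) only through its knockdown libraries. It spans 47307477 to 47322066 of chromosome 19 on the plus strand, and its canonical transcript has 2 exons.

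C3AR1, the receptor for C3a, had 0.195 and 0.312 FPKM under sh-NC and 0.183 and 0.459 FPKM under sh-CEBPG#3. The groups overlapped and the second knockdown library was the highest, so no difference was detectable. C3AR1 was below the filter. Without the second knockdown library its log2 difference of 0.069 turned to -0.082. The gene is on the minus strand of chromosome 12 from 8056844 to 8066359, also with 2 exons.

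The membrane regulators protect the cell that carries them. CD55 (207321678 to 207360966), CR1 (207496157 to 207641765) and CD46 (207752038 to 207795516) lie in the cluster of complement regulators of chromosome 1, on the plus strand and within 474 kb. CD59 is on the minus strand of chromosome 11 from 33703010 to 33736479.

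CD46, a cofactor for the cleavage of C3b and C4b by factor I, had 42.6 and 46.4 FPKM under sh-NC and 48.3 and 44.1 FPKM under sh-CEBPG#3. The groups overlapped, and the log2 fold change of 0.053 was smaller than its standard error of 0.080. CD55, which speeds the decay of the convertases, had 10.2 and 11.4 FPKM in the controls and 8.68 and 7.66 FPKM in the knockdown. Both knockdown libraries were lower, at 75.7% of the control mean, with a log2 fold change of -0.36 (standard error 0.097). CD59, which blocks the assembly of the membrane attack complex, had 1.89 and 1.67 FPKM in the controls and 2.27 and 2.20 FPKM in the knockdown. Its knockdown values were slightly higher, with a log2 fold change of 0.22 (standard error 0.114), which became 0.33 with a pseudocount of 0.01. CR1, a receptor for C3b and C4b with 47 exons, had 0.215 and 0.206 FPKM in the controls and 0.136 and 0.101 FPKM in the knockdown. CR1 was lower in both knockdown libraries but far below the filter, so it was not among the genes tested. The 3 regulators that were expressed, CD46, CD55 and CD59, summed to 54.7 and 59.5 FPKM under sh-NC and to 59.2 and 54.0 FPKM under sh-CEBPG#3, so their total overlapped between the groups.

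CD46 is read from 6 RefSeq transcripts, and they did not all move with the total. NM_153826 had 14.5 and 15.2 FPKM under sh-NC and 21.4 and 23.6 FPKM under sh-CEBPG#3, higher in both. Its share of the gene went from a mean of 33.5% to 48.9%. NM_002389 had 6.82 and 3.01 FPKM in the controls and 2.83 and 1.80 FPKM in the knockdown, lower in both, but only just below the second control. The other 4 transcripts overlapped between the groups. When NM_153826, the most abundant transcript over the 4 libraries, stood for the gene, the log2 difference of CD46 was 0.57 in place of 0.053. NM_153826 ranks first only through its knockdown libraries. In the controls NM_172351 had the higher mean, 15.4 against 14.9 FPKM, so the choice favors a rise and the 0.57 adds no support. CD46 transcripts share most of their exons, and the FPKM of each rests on how the authors' program divided shared reads.

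CD55 and CD59 each had a single leading transcript. NM_000574 carried 73.5% to 92.6% of the CD55 signal and had 9.41 and 8.39 FPKM in the controls against 7.04 and 5.86 FPKM in the knockdown, the same direction as the gene. NM_000611 carried 74.9% to 91.8% of the CD59 signal and had 1.41 and 1.53 FPKM against 1.75 and 2.01 FPKM. The other transcripts of CD55 overlapped between the groups, and so did NM_203331 of CD59.

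The order of the levels differed between the groups. In sh-NC cells it was CFD, CD46, CD55, C3, CFP, CD59, C5AR1, C3AR1, CR1 and CFB. The library ranges of neighbours in this order did not overlap, except those of C3AR1 and CR1. In sh-CEBPG#3 cells C3 stood above CD46 and CD55, and CFP stood above CD55, while the order of the others was kept. There no neighbours overlapped, but C3 and CD46 were close, with means of 51.4 ± 1.52 and 46.2 ± 2.93 FPKM (SD, n = 2 each). Neighbours were compared by these ranges alone, with no test. C3 made up 1.73% of the summed FPKM of the 10 genes in sh-NC cells and 9.08% in sh-CEBPG#3 cells, while CFD made up 84.0% and 78.8%.

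Of the 10 genes, 6 were higher in both knockdown libraries than in both controls, where this holds for 29.5% of all genes with values. CFB, near 0 in all libraries, is among the 6. Lower in both were 2 of the 10, CD55 and the low CR1, against 35.1% of all genes. C3AR1 and CD46 overlapped. The median log2 difference of the 10 genes was 0.145, and that of all 16490 genes -0.012. The filter was passed by 7 of the 10, while CFB, C3AR1 and CR1 did not. Among the 7, limma with Benjamini-Hochberg adjustment called 4 higher (C3, CFD, CFP and C5AR1) and 1 lower (CD55) at an adjusted p under 0.05, where 18.5% of the genes tested were called higher and 23.8% lower. At an unadjusted p under 0.05 and a log2 fold change beyond 1, C3 and CFP were called higher and none of the 7 lower, against 2.36% and 1.05% of the genes tested. C5AR1 passed the filter only through its knockdown libraries. The 10 genes were chosen from the same contrast, so these counts describe the choice and are no test of the genes.

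The rest of the complement system was followed with a list of 47 further genes, chosen with earlier results of these data known. Of 9 genes that passed the filter, 3 were called higher at an adjusted p under 0.05 in limma (ITGB2, ITGAX and VSIG4) and none lower, where 18.5% of all genes tested were called higher and 23.8% lower. VSIG4 passed the filter only through its knockdown libraries, so it had to differ, and its call adds no support. All 3 are receptors, and so were 7 of the 9 genes tested. At an unadjusted p under 0.05 there were 3 higher and 1 lower, with no share over all genes computed. The lower gene was C5, which passed the filter only through its control libraries. With the fold threshold, VSIG4 alone passed, against 2.36% of all genes tested called higher and 1.05% lower, and no list gene passed with a filter at 1 FPKM. The median log2 fold change of the 9 genes was 0.088, against -0.038 for all genes tested. Of the 47 genes, 27 were not listed. C2, SERPING1, CFI and CR2 are among these.

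ITGB2 encodes the beta chain shared by the complement receptors CR3 and CR4, and ITGAM and ITGAX encode their alpha chains. ITGB2 had 122 and 138 FPKM under sh-NC and 244 and 235 FPKM under sh-CEBPG#3, a log2 fold change of 0.88 (standard error 0.078, adjusted p = 1.88e-05 in limma). ITGAX had 1.56 and 1.85 FPKM in the controls and 4.08 and 4.10 FPKM in the knockdown, a log2 fold change of 0.92 (standard error 0.110, adjusted p = 0.000134 in limma). Both genes were thus higher in both knockdown libraries. ITGAM, the alpha chain of CR3, had 7.74 and 7.85 FPKM against 8.70 and 8.02 FPKM, and did not pass the test (adjusted p = 0.451 in limma).

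VSIG4, a receptor for C3b on tissue macrophages, had 0.0221 and 0.118 FPKM under sh-NC and 2.11 and 1.33 FPKM under sh-CEBPG#3. The log2 fold change of VSIG4 was 1.33 (standard error 0.166), given with no p for the reason above. The other receptors tested did not pass. C5AR2, the second receptor for C5a, had 0.715 and 0.952 FPKM in the controls and 1.12 and 1.26 FPKM in the knockdown (adjusted p = 0.153 in limma). CD93, once described as a C1q receptor, had 14.5 and 15.7 FPKM against 15.6 and 14.9 FPKM (adjusted p = 0.899 in limma). C1QBP, a C1q-binding protein found mostly in mitochondria, had 257 and 274 FPKM against 258 and 248 FPKM (adjusted p = 0.474 in limma). It was called lower only with equal totals, at -0.093 (adjusted p = 0.037 in limma).

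The soluble components other than C3, CFD and CFP were low or not listed. Of 16 genes of the classical and lectin pathways 7 were listed and 1, MASP2, was tested, at 1.46 and 1.74 FPKM in the controls and 1.37 and 1.97 FPKM in the knockdown. FCN1, a ficolin of monocytes, is listed at 0 in both controls and had 0.120 and 0.136 FPKM in the knockdown, higher in both but below the filter. Of 7 genes of the terminal pathway 2 were listed. C8G, a chain of the membrane attack complex, had 0.397 and 0.289 FPKM in the controls and 0.612 and 0.534 FPKM in the knockdown, also higher in both and below the filter. C5, the source of C5a, had 0.687 and 0.741 FPKM in the controls and 0.341 and 0.290 FPKM in the knockdown, lower in both libraries. Its log2 fold change was -0.38 (standard error 0.140), and it was not called. C5 passed the filter only through its control libraries, so no p is given. C5 was called lower with equal totals, with quantile normalization and with no filter. The calls with equal totals and quantile normalization used the same filter, so they add no support. Of 16 soluble and other regulators 4 were listed, CLU, VTN and CSMD1 among them, and none was tested, since each had a mean under 0.5 FPKM. CLU, which encodes clusterin, had 0.179 and 0.1998 FPKM in the controls and 0.335 and 0.434 FPKM in the knockdown.

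The genes most like C3 were found by the root mean square difference over the 4 libraries, in log2(FPKM + 1) after subtraction of the sh-NC mean. They were BST2 (0.021), IRF9 (0.052), SLFN5 (0.063), FCER2 (0.088) and SIGLEC1 (0.108). BST2, which encodes the restriction factor tetherin, had 47.5 and 53.2 FPKM in the controls and 324 and 306 FPKM in the knockdown. IRF9, a subunit of the interferon-activated factor ISGF3, had 3.99 and 4.13 FPKM against 31.4 and 29.9 FPKM. FCER2, the low affinity IgE receptor CD23, had 12.8 and 14.8 FPKM against 100.7 and 99.2 FPKM. In FPKM the ratios of BST2 (6.25), IRF9 (7.55) and FCER2 (7.23) were near the 6.96 of C3. SLFN5 and SIGLEC1 resemble C3 on the log scale with its pseudocount of 1 only. SLFN5 had 0.507 and 0.590 FPKM in the controls and 8.85 and 7.87 FPKM in the knockdown, and SIGLEC1 had 0.0233 and 0.0108 FPKM against 5.63 and 4.59 FPKM, so that their ratios of 15.2 and about 300 were larger. SIGLEC1 passed the filter only through its knockdown libraries. The likeness rests on 4 libraries in 2 groups.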

How the data were processed

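RNA was sequenced from 2 sh-NC and 2 sh-CEBPG#3 libraries of MV4-11 cells. The authors deposited FPKM values, 1 per RefSeq transcript and library. The submitters' processing notes name HISAT2 2.0.5 and hg38. The program that computed FPKM is not given in the sources used here.

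Of 28780 transcripts, 28581 have values, which were summed by symbol to 16490 genes. Those at or above a mean of 0.5 FPKM, 12142 in all, were fitted on log2(FPKM + 1) with limma 3.58.1 in R 4.3.3 (lmFit, eBayes with a trend, no block), with Benjamini-Hochberg adjustment over all of them. The study's own test takes counts, so it was not used. The depth is unknown, and no interval or floor is given: of 1712 transcripts with low values at most 0.935% shared a ratio between the control libraries, so no steps of whole reads were seen.

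The 10 genes, the list of 47 complement genes, the marker lists and the motifs were chosen with earlier results of these data known. Genes named are the 10, CEBPG, list genes with an adjusted p under 0.05 or a mean of at least 5 FPKM, and the 5 genes most like C3. Further list genes were named after their values were seen, and some list genes and markers are not reported here by name. Coordinates are from RefSeq on GRCh38.p14 and exon numbers from GENCODE. Alternatives were other pseudocounts, filters and scalings, the most abundant transcript, the replicate block and leaving out each library.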

Additional observations from a re-analysis of the deposited data

How the results depend on the processing

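C3, CFD, CFP and C5AR1 stayed higher and CD55 lower under every alternative run. The log2 fold change of C3 was 2.62 to 2.80, and 2.55 to 2.74 with each library left out. C3AR1 was not tested and CD46 was not called, and both turned below 0 with a library left out. C3AR1 was at -0.082 without sh-CEBPG#3 replicate 2. CD46 was at -0.006 without sh-NC replicate 1 and at -0.010 without sh-CEBPG#3 replicate 1. Of the 120 values of the 10 genes under alternatives, 13 moved by more than the spread between libraries, all of them with the smaller pseudocounts or, for CD46, with the most abundant transcript. That CD46 transcript ranks first only through the knockdown libraries. The median log2 difference of the 10 genes was 0.145, and moved to 0.250 and 0.321 with pseudocounts of 0.1 and 0.01, which weigh low values more, to 0.243 with the most abundant transcript and to 0.148 to 0.213 with each library left out (0.213 without sh-CEBPG#3 replicate 1). The list count at an adjusted p under 0.05 in limma was 3 of 9, against 5128 of the 12142 genes tested. With no filter it was 6 of 20, against 4093 of 16490 genes, and FCN1 as higher and C5 as lower were among those added. With equal totals it was 5 of 9, against 5849 of 12142, with C1QBP and C5 added as lower. With quantile normalization it was 4 of 9, against 5751 of 12142, with C5 added as lower. Wherever C5 was tested with the filter at 0.5 FPKM, it passed only through its control libraries. VSIG4 passed that filter only through its knockdown libraries, so the calls of these genes there add no support. With the fold threshold the count was 1, and 2 and 3 with pseudocounts of 0.1 and 0.01 (ITGAX, then C5, added). It was 0 of 7 with a filter at 1 FPKM, which leaves VSIG4 out, against 399 of 11187 genes. There limma gave 2 of 7 genes an unadjusted p under 0.05, with no share over all genes computed. ITGB2, ITGAX and VSIG4 were called in each fit that left out a library, which was added after the data were seen and assumes that the lone library varies like the other group. Over all genes the count was 414, and 827 and 882 with the 2 smaller pseudocounts. At an adjusted p under 0.05 it was 5128, and 2864 with the most abundant transcript. The causes of these changes were not tested beyond the genes added or left out.

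The deviations of libraries 1 and 2 from their group means correlated between the groups at 0.061 over genes, so the replicate numbers of these 2 pairs are not shown to pair the libraries. With the replicate block the list count stayed at 3 and 1, and over all genes it was 4761 and 419. The files hold no counts, so the depth cannot limit or weigh the low values of CFB, C3AR1 and CR1.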
